A study of Mus musculus with 15 samples.

Results

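*Igf2*, *H19* and 8 further genes of the insulin-like growth factor (IGF) axis were followed through 15 subcutaneous tumors of Renca cells, a mouse renal cell carcinoma line of BALB/c origin. The 10 members were picked by gene symbol from a table of 18279 genes (*Igf2*, *H19*, *Igf1*, *Igf1r*, *Igf2r*, *Igfbp2*, *Igfbp3*, *Igfbp4*, *Igfbp5* and *Igfbp7*), and each had a mean of at least 10 normalized counts over the tumors. The list was drawn up with the difference between knockout and control tumors already known, so that difference is given for the members as a description, with no test, and tests on the members were run between the knockout clones.

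The recipients were female BALB/c mice, 4 to 6 weeks of age when bought, and each group was 5 tumors. The control tumors are numbered 1 to 5 here. Their records name parental Renca cells as the source, whereas the series' description calls them control knockout. Tumors 6 to 10 grew from *Pbrm1* knockout clone 4 and tumors 11 to 15 from *Pbrm1* knockout clone 18, clones made with transient Cas9 and a repair plasmid carrying puromycin resistance and a red fluorescent protein. Mice of the study were either left untreated or given PD-1 antibody, and the records do not say which of these tumors had received it. Each group is 1 line or clone, so genotype and line cannot be told apart, and p-values measure the spread between tumors, not between independent lines. For knockout against control, the 10 tumors of both clones were pooled, so any difference between the clones is part of that spread. For clone 18 against clone 4, limma took the spread from the tumors of all 3 groups, control included. *Pbrm1*, a subunit of the PBAF chromatin remodelling complex, had 9012 ± 956 normalized counts in the control group (SD, n = 5), 2751 ± 213 with clone 4 and 2838 ± 210 with clone 18. The tumors held 32924414 to 49099168 reads on genes, and all 9 kidney epithelium markers, such as *Cdh16*, *Krt8* and *Pax8*, were detected in each tumor.

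IGF1 and IGF2 are secreted peptides that activate the receptor tyrosine kinase IGF1R, which signals through insulin receptor substrates, PI3K and AKT. IGF2R binds IGF2 and carries it to lysosomes, and the IGF binding proteins hold the ligands outside the cell and set how much reaches the receptor. *Igf2* and *H19* are imprinted neighbours. *Igf2* is expressed from the paternal and the noncoding RNA *H19* from the maternal chromosome, both draw on shared enhancers, and a CTCF-bound control region between them keeps the enhancers from maternal *Igf2*. In the mouse, *Igf2* is a fetal growth factor whose expression falls in most tissues after birth.

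On GRCm38, with GENCODE M21 genes, *Igf2* (ENSMUSG00000048583) spans chr7:142650766-142666816 and *H19* (ENSMUSG00000000031) spans chr7:142575529-142578143, both on the minus strand with 72623 bp between them. Each holds a microRNA gene, *Mir483* in an intron of *Igf2* and *Mir675* within an exon of *H19*. The microRNAs themselves were not analysed here, nor were *Gm49394*, which overlaps *Igf2* on the same strand, and *Igf2os* on the other strand. How the counting treated reads in such overlaps was not given in the sources used here. The mature microRNA sequences (RefSeq, GRCm38.p6) are shown since their genes lie within *Igf2* and *H19*. The seed, bases 2 to 8 from the 5′ end, is in capitals.
mmu-miR-675-5p: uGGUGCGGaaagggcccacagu
mmu-miR-675-3p: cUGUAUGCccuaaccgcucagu
mmu-miR-483-5p: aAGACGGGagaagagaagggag
mmu-miR-483-3p: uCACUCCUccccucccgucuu
The 4 seeds differ from one another, so none of these microRNAs forms a seed family with another.

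RefSeq start sites gave 4 promoter windows for *Igf2*, each reaching from 250 bases before to 50 bases after a start. Both windows below are shown because the *Igf2* difference turns on this gene, and they are the ones with the most GC boxes and the most CpG among the 4. Capitals mark a GC box (GGGCGG, or CCGCCC on the other strand) or a CCAAT box (CCAAT, or ATTGG on the other strand).
Igf2, chr7:142657447-142657746, minus strand, GRCm38.p6: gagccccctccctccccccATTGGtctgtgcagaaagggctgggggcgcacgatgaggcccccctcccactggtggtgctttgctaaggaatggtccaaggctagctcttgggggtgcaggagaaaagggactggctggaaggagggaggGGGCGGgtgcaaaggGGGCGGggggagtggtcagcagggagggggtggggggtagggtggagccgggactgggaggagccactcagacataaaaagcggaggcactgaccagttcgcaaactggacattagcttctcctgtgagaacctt
Igf2, chr7:142658755-142659054, minus strand, GRCm38.p6: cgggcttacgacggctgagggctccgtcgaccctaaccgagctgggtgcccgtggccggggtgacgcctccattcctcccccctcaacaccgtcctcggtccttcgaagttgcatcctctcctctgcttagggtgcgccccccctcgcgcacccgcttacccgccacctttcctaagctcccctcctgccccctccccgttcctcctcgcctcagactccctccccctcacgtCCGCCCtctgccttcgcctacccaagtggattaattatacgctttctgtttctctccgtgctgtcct
The first holds 2 GC boxes, 1 CCAAT box and 7 CpG, and the second 1 GC box, no CCAAT box and 24 CpG, against a median of 7 CpG in all 32851 windows. A GC box was found in 35.7% of all windows and a CCAAT box in 37.4%. TATAAA, on either strand, was in neither *Igf2* window and in 13.6% of all windows. Counts per gene do not tell which start was used.

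*Igf2* RNA was close to 0 in control tumors and present in each knockout tumor. Control tumors 1 to 5 had 4.6, 1.8, 7.4, 0 and 1.1 normalized counts. Clone 4 tumors 6 to 10 had 19.3, 71.7, 41.8, 42.1 and 116. Clone 18 tumors 11 to 15 had 171, 108, 215, 133 and 243. The lowest knockout tumor was thus above the highest control tumor, and 4 of 5 clone 18 tumors lay above each clone 4 tumor. In reads, the 5 control tumors held 15 in all, against 278 in clone 4 and 770 in clone 18, and the 0 in control tumor 4 allows up to 3.36 normalized counts, the value of 3 reads there, for counting error only.

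The group means were 2.98 ± 3.00 (SD, n = 5) in control, 58.2 ± 37.3 in clone 4 and 174 ± 55.6 in clone 18, so clone 4 stood at 19.5 times and clone 18 at 58.4 times the control mean. With only 15 control reads these ratios are loose, and without control tumor 3 they were 31.0 and 92.9. On log2(normalized count + 1), the scale of the log2 differences given here, both clones together were 4.90 above control (SE 0.57), which was the value known when the genes were chosen. As background, 22.1% of the 18250 tested genes passed an adjusted p of 0.05 between knockout and control in limma. Of all tested genes, 9.23% passed as higher and 12.9% as lower, and 3.11% had each knockout tumor above each control tumor. Nothing is read from these shares for the members.

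*H19*, in contrast to *Igf2*, had control values within the range of the knockout tumors. Control tumors 1 to 5 had 52.2, 43.2, 79.7, 40.3 and 168 normalized counts. Clone 4 tumors 6 to 10 had 7.7, 73.6, 42.8, 55.8 and 133. Clone 18 tumors 11 to 15 had 62.3, 181, 397, 141 and 131. All 3 groups overlapped, control tumor 5 was higher than each clone 4 tumor, and only tumors 12 and 13 of clone 18 passed the highest control. The means were 76.7 ± 53.4 in control, 62.5 ± 46.0 in clone 4 and 182 ± 127 in clone 18 (SD, n = 5). The log2 difference from control, taken between means of log2 values, was -0.52 (SE 0.61) for clone 4 and 1.20 (SE 0.61) for clone 18.

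**Figure D1:**
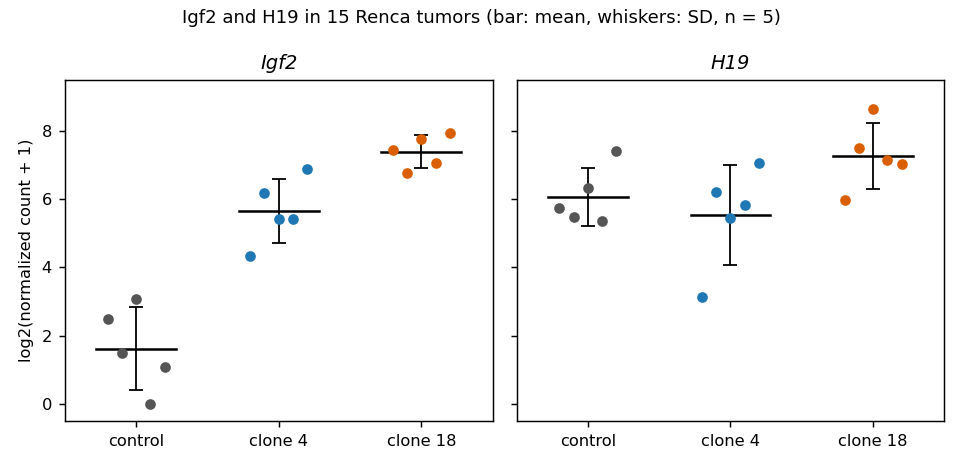
Points are single tumors, on a vertical axis of log2(normalized count + 1), for *Igf2* (left) and *H19* (right) in control, clone 4 and clone 18; bars are means and whiskers SD (n = 5). *Igf2* in the knockout tumors (19.3 to 243 normalized counts) sits above the control tumors (0 to 7.4), whereas *H19* overlaps in all 3 groups.

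Per kb of exon, *Igf2* was below *H19* in the mean of each group, at 0.521 against 31.2 normalized counts per kb in control, 10.2 against 25.4 in clone 4 and 30.4 against 74.2 in clone 18. On normalized counts without regard to length, as values within each tumor, the difference log2 *Igf2* minus log2 *H19* was -4.44 ± 1.37 (SD, n = 5) in control, 0.11 ± 0.64 in clone 4 and 0.13 ± 1.01 in clone 18. Since *H19* overlapped between the groups, the gap between control and knockout in this difference restates that of *Igf2*, for which the genes were chosen, and in control tumor 4, with *Igf2* at 0, it depends on the pseudocount. Between the clones this difference was 0.01 (clone 18 minus clone 4, two-sided exact permutation test, p = 1), and its sign changed with the tumors used.

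Clone 18 had more *Igf2* than clone 4 by 1.74 on the log2 scale (SE 0.52, 95% interval 0.64 to 2.85), and its mean normalized count was 2.99 times that of clone 4. The log2 difference did not pass limma's adjusted p over all genes (adjusted p = 0.0677), while edgeR (adjusted p = 0.0372) and DESeq2 (adjusted p = 0.00242) on the recovered reads called it. The control tumors, with 0 to 8 reads of *Igf2* each, entered limma's estimate of the spread in this comparison of the clones. With pseudocount 5 the difference was 1.65 and passed limma (adjusted p = 0.0152). The exact permutation test on *Igf2* alone, chosen after the data were seen, gave an unadjusted p of 0.0159 over all splits of the 10 knockout tumors into 5 and 5. *H19* differed by 1.73 (SE 0.61, 95% interval 0.44 to 3.02, limma adjusted p = 0.126), with an unadjusted exact permutation p of 0.0476. Tumor 6 was the lowest knockout tumor for *Igf2*, *H19* and *Igfbp2*, and without it the clone difference of *H19* was 1.12 (limma adjusted p = 0.251) and that of *Igf2* 1.42 (limma adjusted p = 0.158). Without tumor 4 or tumor 10, the *Igf2* difference passed limma at adjusted p of 0.0382 and 0.0358.

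Of the 10 members, 0 passed limma's adjusted p between the clones, against 4.62% of all genes, and 4 had an unadjusted p under 0.05 (*Igf2*, *H19*, *Igfbp2* and *Igfbp5*), against 18.5% of all genes. edgeR and DESeq2 each called 1 member, *Igf2*, where they called 4.51% and 7.91% of the genes they tested. None of the members separated the clones without overlap, which 5.52% of all genes did. The exact permutation test between the clones gave an unadjusted p of 0.0714 for *Igfbp2* and for *Igfbp4*. For *Igf1*, *Igf1r*, *Igf2r*, *Igfbp3* and *Igfbp7* that test gave 0.103 or more. The median difference over the members was 0.02, and over all genes -0.01. For *Igf1*, *Igf1r*, *Igf2r*, *Igfbp3*, *Igfbp4* and *Igfbp7* the log2 difference between the clones lay between -0.31 and 0.20. The 95% interval was -0.07 to 0.47 for *Igf1* (limma adjusted p = 0.440) and -0.62 to 0.00 for *Igf1r* (limma adjusted p = 0.272).

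*Igf1*, the other ligand, was the more abundant of the pair in each tumor. Control tumors 1 to 5 had 2444, 2513, 2429.6, 2365 and 2963 normalized counts. Clone 4 tumors 6 to 10 had 4477, 2438, 3899, 3197 and 3556, and clone 18 tumors 11 to 15 had 4067, 4509, 3653, 3368 and 4249. Of 10 knockout tumors, 9 lay above each control tumor, and tumor 7 of clone 4 lay inside the control range. The means were 2543 ± 240.4 in control, 3513 ± 764 in clone 4 and 3969 ± 458 in clone 18 (SD, n = 5). The log2 difference of both clones from control was 0.54 (SE 0.12), and the ratio of the mean normalized counts was 1.47. Per kb of exon, the scale on which genes can be compared, *Igf2* was 0.207% ± 0.215 (SD, n = 5) of *Igf1* plus *Igf2* in control, 2.99% ± 2.00 in clone 4 and 7.09% ± 2.14 in clone 18. The sum of the ligands per kb went from 257 ± 24.1 in control to 365 ± 74.5 in clone 4 and 431 ± 46.8 in clone 18, mostly *Igf1*.

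Both receptors overlapped between all 3 groups. *Igf1r*, the signalling receptor, had 2171 to 3632 normalized counts in control, 2086 to 3220.3 in clone 4 and 1768 to 2836 in clone 18. *Igf2r*, the clearance receptor, had 4555 to 8079 in control, 5571 to 8259 in clone 4 and 4742 to 7129 in clone 18. Their log2 differences of knockout from control were -0.09 (SE 0.14) and 0.07 (SE 0.14), and these signs turned without control tumor 2 for *Igf1r* (0.03) and without control tumor 4 for *Igf2r* (-0.03). Per kb, *Igf2r* was 4.34 ± 0.65 times *Igf1r* in control, 4.73 ± 0.44 in clone 4 and 4.99 ± 0.51 in clone 18 (SD, n = 5). *Igf2r* shares its 5′ part with *Airn*, an imprinted RNA on the other strand, and since the strand setting of the counting was not given in the sources used here, reads of these genes cannot be told apart where they overlap. The same holds for the end of *Igfbp7*, which overlaps *Polr2b*.

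Among the binding proteins, *Igfbp5* and *Igfbp4* were lower in knockout tumors. *Igfbp5* encodes a binding protein that sits in the extracellular matrix. It had 424, 482, 405, 214 and 453 normalized counts in control tumors 1 to 5. Clone 4 tumors 6 to 10 had 249.8, 259.9, 173, 273 and 369.8, and clone 18 tumors 11 to 15 had 151, 189.5, 211, 222 and 150. Control tumor 4 overlapped both clones, while the other 4 control tumors were above each knockout tumor. The means were 395 ± 106, 265 ± 70.3 and 185 ± 33.1 (SD, n = 5), and the log2 difference from control was -0.56 (SE 0.22) for clone 4 and -1.06 (SE 0.22) for clone 18. Between the clones *Igfbp5* differed by -0.50 (95% interval -0.96 to -0.03, limma adjusted p = 0.234), with an unadjusted exact permutation p of 0.0476.

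*Igfbp4*, whose protein is known mainly as an inhibitor of IGF action until a protease cuts it, had 4186, 2608, 3572, 3146 and 4648 normalized counts in control tumors. Clone 4 had 2692, 3633, 2615, 2967 and 3106, and clone 18 had 2497, 2918.5, 2768.5, 2233 and 2398. The groups overlapped, with 3 knockout tumors, all of clone 18, below each control tumor. Knockout tumors were 0.37 lower on the log2 scale (-0.37, SE 0.12).

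*Igfbp2*, which binds IGF2 more tightly than IGF1 and is common in fetal tissue, had 162.5, 140, 159, 118 and 295 normalized counts in control tumors 1 to 5. Clone 4 tumors 6 to 10 had 32.8, 296, 209, 103.5 and 173, and clone 18 tumors 11 to 15 had 193, 335, 378, 276 and 218. The lowest value was again tumor 6 and the highest again tumor 13, as for *H19*. The log2 difference between the clones was 1.06 (95% interval 0.15 to 1.97, limma adjusted p = 0.192), and 0.57 without tumor 6 (limma adjusted p = 0.356).

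*Igfbp3*, the main carrier of IGFs in blood, and *Igfbp7*, a relative with weak IGF binding that endothelium makes in quantity, were the most abundant members. *Igfbp3* had 4701 to 10307 normalized counts in control, 5880.4 to 12145 in clone 4 and 6359 to 11327 in clone 18, with 5 of 10 knockout tumors above each control. *Igfbp7* had 9457 to 11821 in control, 9934 to 13117 in clone 4 and 10031 to 13416 in clone 18, with 4 of 10 above each control. Their log2 differences of knockout from control were 0.25 (SE 0.19) and 0.10 (SE 0.08). The clone difference of *Igfbp3* was -0.01 (limma adjusted p = 0.987) and turned to 0.01 under upper quartile scaling.

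**Figure D2:**
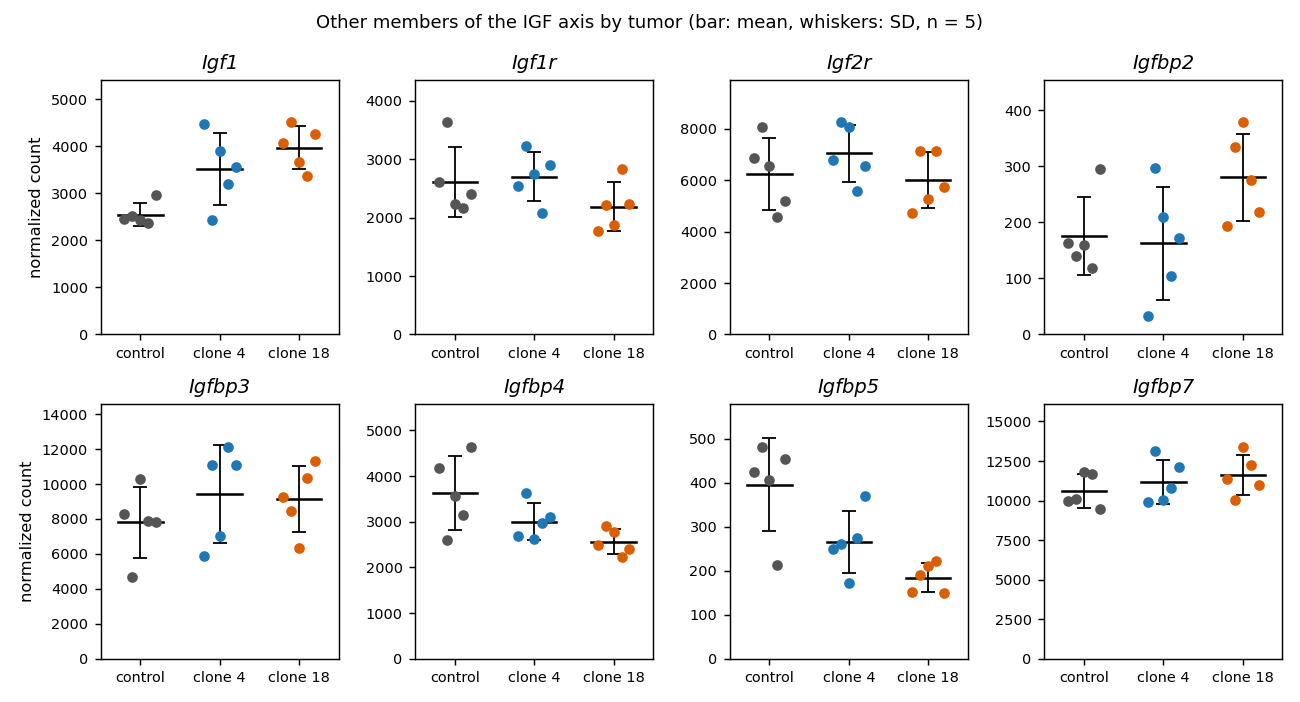
Each panel plots the normalized counts of 1 gene by tumor, from 0, in control, clone 4 and clone 18, with the mean as a bar and the SD as whiskers (n = 5). *Igf1* is higher in 9 of 10 knockout tumors than in any control tumor, *Igfbp5* is lower in the knockout groups apart from an overlap with control tumor 4, and the receptors overlap throughout.

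Per kb of exon the control order was *Igfbp7* (8775 ± 883 normalized counts per kb), *Igfbp3* (2493 ± 642), *Igfbp4* (822 ± 184), *Igf2r* (671 ± 150.5), *Igf1* (257 ± 24.3), *Igf1r* (155 ± 35.5), *Igfbp2* (94.6 ± 37.6), *Igfbp5* (65.8 ± 17.6), *H19* (31.2 ± 21.7) and *Igf2* (0.521 ± 0.524), all SD with n = 5. The ranges overlapped between *Igfbp4* and *Igf2r*, between *Igf1r* and *Igfbp2*, between *Igfbp2* and *Igfbp5* and between *Igfbp5* and *H19*, and not between the other neighbours in this order. *Igf2* reached 10.2 ± 6.51 per kb in clone 4 and 30.4 ± 9.72 in clone 18, where its mean was next to that of *Igfbp5* (30.7 ± 5.52). Of the summed level per kb of the 5 binding proteins, *Igfbp7* held 71.8% in control, 71.1% in clone 4 and 72.2% in clone 18, and *Igfbp5* 0.549%, 0.337% and 0.231%.

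**Figure D3:**
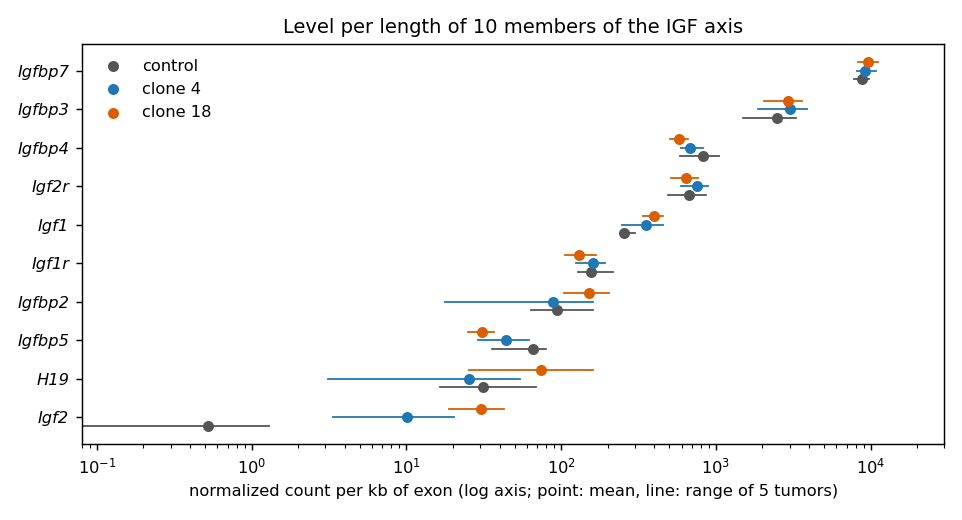
Normalized counts per kb of exon on a log axis for the 10 members, with points at the mean and lines over the range of the 5 tumors of each group. *Igf2* moves from the lowest place in control (0.521, with its line cut at the axis because tumor 4 is at 0) to 30.4 in clone 18, and no other member's mean changes by as large a factor.

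**Figure D4:**
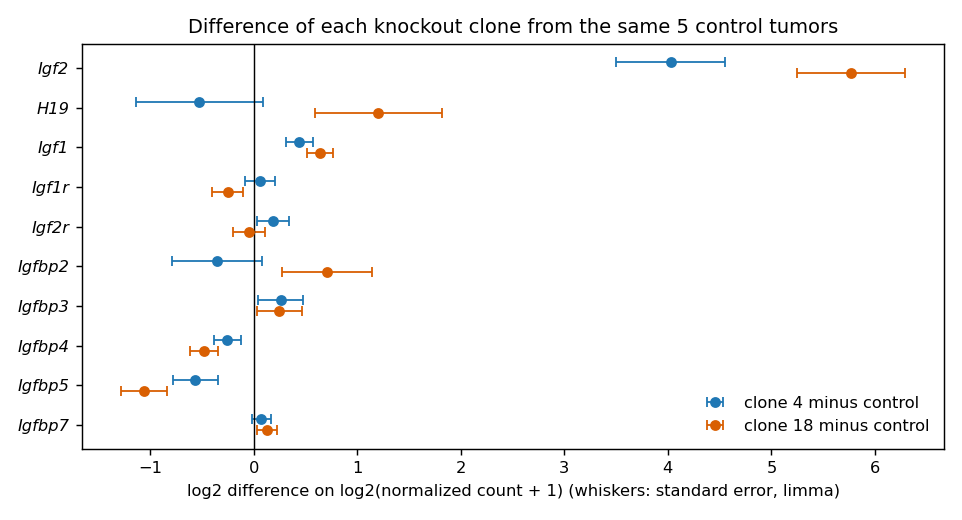
The log2 difference of clone 4 and of clone 18 from the same 5 control tumors for each member, with the standard error from limma as whiskers. *Igf2* lies at 4.03 and 5.77, and the other members lie between -1.06 and 1.20; the clones share the control tumors, so their agreement is no separate evidence.

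These are bulk tumors, in which fewer cells of a type and less RNA per cell cannot be told apart, so the markers of other cell types are given beside the members. The summed level of the skeletal muscle markers (8 of 10 listed genes in the table, none at 0 throughout a group) was 77.6 to 214 in control and 764 to 1952 in knockout tumors 9, 10, 11, 14 and 15. The 5 knockout tumors at or below the highest control muscle sum had 19.3, 71.7, 41.8, 108 and 215 normalized counts of *Igf2*. The sum of the 9 fibroblast markers was 50159 to 83226 in control, 19426 to 185839 in clone 4 and 61560 to 123139 in clone 18. The 4 knockout tumors within the control range of that sum had 42.1 to 215 normalized counts of *Igf2*. Tumor 6 had the lowest fibroblast sum and tumor 10 the highest. The part of muscle and fibroblast content in the *Igf2*, *H19* and *Igfbp2* values was not tested.

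The sum of the 8 macrophage markers was lower in knockout tumors. It was 80160 to 105366 in control, 62616 to 78592 in clone 4 and 56835 to 76367 in clone 18. *Igf1*, which macrophages and fibroblasts can make, had a higher mean in both clones. The part of macrophage and fibroblast content in the *Igf1* values was not tested. The 8 endothelial markers overlapped between groups (7010 to 14221, 8817 to 15320 and 9744 to 11865), as did the 6 adipocyte markers (319 to 555, 221 to 1412 and 358 to 647). The 9 kidney epithelium markers summed to 114805 to 138523, 98526 to 128558 and 104420 to 120544. None of these lists had a marker at 0 throughout a group. Pearson r was taken over the 15 tumors, with each value as its deviation from its group mean. *Igfbp3* had an r of 0.78 with the endothelial sum, *H19* of 0.70 with the fibroblast sum and *Igf2* of 0.70 with the endothelial sum. These were the highest of all members and marker sums, where r ran from -0.58 to 0.78. The same genes had an r of 0.59 (*Igfbp3*) and 0.54 (*Igf2*) with the fibroblast sum and 0.55 (*H19*) with the endothelial sum. *Igf1* had an r of 0.57 with the macrophage sum. These are descriptions of 15 libraries that share stroma content and scaling within a tumor. For *Igf2*, each control tumor enters with only 0 to 8 reads, so counting error weighs on its r values.

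Among themselves the members paired off unevenly. Over the 45 pairs the median r of these deviations was 0.25, with 2 pairs over 0.7 and 1 under -0.7. *H19* and *Igfbp2* had an r of 0.84 (n = 15), which was 0.66 without tumor 6. *Igf1r* and *Igf2r* had an r of 0.82, and *Igf1* and *Igfbp7* of -0.79, neither of which moved by more than 0.05 without tumor 6 or tumor 10. *Igf2* and *H19*, the neighbours, had an r of 0.49, and of 0.27 without tumor 6. On the *Igf2* side this r rests on 0 to 8 reads in each control tumor.

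**Figure D5:**
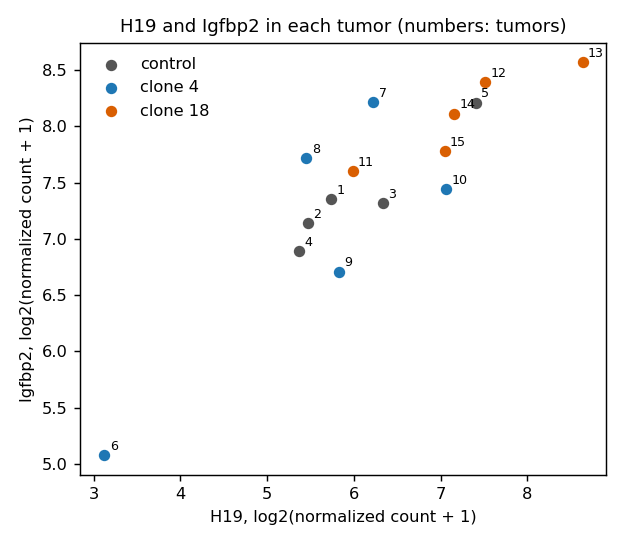
*H19* (horizontal) against *Igfbp2* (vertical), both as log2(normalized count + 1), with 1 numbered point per tumor coloured by group. Tumor 6 of clone 4 is lowest and tumor 13 of clone 18 highest on both axes, and r of the deviations from group means is 0.84 with all 15 tumors and 0.66 without tumor 6.

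The genes whose pattern over the 15 tumors was most like that of *Igf2* (Pearson r on the log2 scale, members left out) were *Slc52a3* (0.96), *Gc* (0.94), *Atp13a4* (0.93), *Dcaf4* (0.93) and *Supt3* (0.93). *Gc*, the vitamin D binding protein, had group means of 411 in control, 5131 in clone 4 and 12470.4 in clone 18. *Atp13a4*, a cation-transporting ATPase, had 201, 2037 and 5162. Both were picked for their likeness to *Igf2*, so the shared order control, clone 4, clone 18 comes with that choice and is no separate result. As deviations from the group means, the 5 most like *Igf2* were *Pkia* (0.87), *Zfp13* (0.85), *Trim16* (0.84), *Adamts4* (0.83) and *4833422C13Rik* (0.81). None was in both lists. With 0 to 8 reads of *Igf2* in each control tumor, counting error enters its deviations there.

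For *H19* the 5 most alike were *Lrp3* (0.90), *Tm4sf19* (0.86), *Dpp6* (0.85), *Pde10a* (0.85) and *Mfap4* (0.85). As deviations they were *Dnm3* (0.87), *Pde10a* (0.87), *Mfap2* (0.87), *Tfpi2* (0.86) and *Zfp651* (0.86), with *Pde10a* in both. *Mfap2* and *Mfap4* encode microfibril-associated proteins of the extracellular matrix. These r values come from the same 15 libraries and describe the pattern only.

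The rest of the IGF axis was listed as 53 genes, of which 46 were tested and 41 had a mean of at least 10. Of the 46, 10 passed between knockout and control in limma (2 higher, 8 lower), or 21.7%, against 22.1% of all genes. The median log2 difference was 0.01 in the list and -0.02 over all genes. The called genes were spread over the steps of the pathway, and 0 of 5 proteases and protease inhibitors of the binding proteins were among them (0 also at an unadjusted limma p under 0.05, in edgeR and in DESeq2).

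*Igfbp6*, a binding protein with a strong preference for IGF2, had 3054 to 5068 normalized counts in control, 1442 to 2086 in clone 4 and 2668 to 3208.5 in clone 18. It was lower in knockout tumors by a log2 difference of -0.82 (SE 0.21, limma adjusted p = 0.00793), and clone 18 overlapped the control tumors while clone 4 did not. Clone 18 exceeded clone 4 in all 5 tumors, by 0.86 (SE 0.12, limma adjusted p = 0.000332).

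Among receptors and adaptors 1 of 9 passed, or 11.1% against 22.1% of all genes. *Gab1*, a docking protein that recruits PI3K, fell by 0.41 on the log2 scale (-0.41, SE 0.09, limma adjusted p = 0.00342). It was lower in clone 18 than in clone 4 by a further -0.31 (limma adjusted p = 0.0245), a call lost without tumor 6, 11, 12 or 13 (adjusted p of 0.0533 to 0.0573). The insulin receptor *Insr* (-0.00488, limma adjusted p = 0.980) and the substrates *Irs1* (0.24, limma adjusted p = 0.485) and *Irs2* (-0.02, limma adjusted p = 0.944) did not pass.

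Of 17 PI3K and AKT genes, 3 passed, all lower in knockout tumors, or 17.6% against 22.1% of all genes. *Pik3r1*, a regulatory subunit of PI3K, changed by -0.41 (SE 0.09, limma adjusted p = 0.00392). *Pik3cb*, a catalytic subunit, changed by -0.32 (SE 0.08, limma adjusted p = 0.00801), and *Akt1* by -0.23 (SE 0.05, limma adjusted p = 0.00568). *Akt1* had 14064 to 15915 normalized counts in control and 11723 to 13904 in the knockout tumors. *Akt2* (0.01) and *Mtor* (0.01) did not pass.

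Of the 3 genes whose proteins bind *Igf2* messenger, 2 passed and were lower in knockout tumors, where 22.1% of all genes passed and 12.9% passed as lower. *Igf2bp3* had 46.7 to 113 normalized counts in control, 6.0 to 52.1 in clone 4 and 2.2 to 13.5 in clone 18, a log2 difference of -2.45 (SE 0.53, limma adjusted p = 0.00301). It was lower again in clone 18 than in clone 4, by -1.69 (SE 0.47, limma adjusted p = 0.0496), so it went the other way from *Igf2* across the 3 groups of means. That clone call was lost in 18 of 23 alternatives, leaving out any control tumor included, with adjusted p of up to 0.122. *Igf2bp1* changed by -0.29 (SE 0.08, limma adjusted p = 0.0165), and by -0.26 without control tumor 2, where it did not pass (adjusted p = 0.0545).

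Of 8 tested regulators of *Igf2* and *H19* transcription, 2 passed, both higher in knockout tumors, or 25% against 22.1% of all genes. *Plag1*, a zinc finger factor known to activate *Igf2*, had 76.6 to 144 normalized counts in control, 143 to 173 in clone 4 and 105 to 185 in clone 18, a log2 difference of 0.71 (SE 0.16, limma adjusted p = 0.00412). Its relative *Plagl2* differed by 0.34 (SE 0.11, limma adjusted p = 0.0315), a call lost without tumor 3, 4, 5 or 14 (adjusted p of 0.0503 to 0.104). *Ctcf* (0.11, limma adjusted p = 0.177) and *Trim28* (0.11, limma adjusted p = 0.0878), which act at imprinting control regions, did not pass. The clone difference of *Plag1* was -0.01 (limma adjusted p = 0.987).

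*Igfals*, the acid-labile subunit of the circulating IGF complex, also passed as lower (limma adjusted p = 0.0392), with a mean under 10 and 0 normalized counts in each clone 18 tumor against 1.1 to 18.5 in control. Between the clones, 4 of the 46 genes passed, or 8.70% against 4.62% of all genes. Besides *Igfbp6*, *Gab1* and *Igf2bp3* this was *Htra1*, a protease that can cut IGF binding proteins, at 1041 to 1542 normalized counts in clone 4 and 1575 to 2013 in clone 18 (0.57, SE 0.12, limma adjusted p = 0.00681). *Igfals* and *Htra1* were singled out after their values were seen.

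Around *Igf2* and *H19* on chromosome 7, 14 of 19 listed neighbours were tested, and 4 passed between knockout and control (1 higher, 3 lower), or 28.6% against 22.1% of all genes. *Mrpl23*, the closest tested gene on the *H19* side, differed by 0.03 (SE 0.07, limma adjusted p = 0.788). *Lsp1* (0.21) and *Ctsd* (0.11), farther on that side, did not pass either. *Tnnt3*, a skeletal muscle troponin between *Lsp1* and *Mrpl23*, was 2.42 higher on the log2 scale without passing (limma adjusted p = 0.148). *Tnni2*, another skeletal muscle troponin on the *H19* side, differed by 0.14 (limma adjusted p = 0.855). The skeletal muscle marker sum was above each control in 5 knockout tumors, and its part in the *Tnnt3* values was not tested.

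*Tspan32*, a tetraspanin of blood cells and the closest tested gene on the *Igf2* side, fell by 1.45 on the log2 scale (-1.45, SE 0.23, limma adjusted p = 0.000201), from 98.3 to 325 normalized counts in control to 54.6 to 78.4 in the knockout tumors. *Tssc4* rose by 0.28 (SE 0.08, limma adjusted p = 0.0179), a call lost without control tumor 4 (adjusted p = 0.0568). *Slc22a18*, an imprinted transporter gene, changed by -0.51 (SE 0.16, limma adjusted p = 0.0284), lost without control tumor 2, 3 or 4 (adjusted p of 0.0599 to 0.0899). *Syt8*, on the *H19* side, changed by -1.74 (SE 0.59, limma adjusted p = 0.0424), from 12.8 to 33.6 normalized counts in control to 0 to 16.0 in the knockout tumors, and that call was lost in 11 of 23 alternatives, including without any one control tumor. Of the imprinted genes *Cdkn1c* (-0.15), *Kcnq1* (-0.10) and *Kcnq1ot1* (-0.18), none passed. Between the clones 0 of the 14 neighbours passed in limma, edgeR or DESeq2, and 2 (*Ctsd* and *Cdkn1c*) had an unadjusted limma p under 0.05, where 4.62%, 4.51% and 7.91% of all genes passed in these tools and 18.5% had such an unadjusted p.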

How the data were processed

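RNA of 15 bulk tumors was sequenced. The deposited signal values are counts per gene that the authors made with TopHat2 (alignment to mm10), HTSeq (counting) and DESeq (1 size factor for each tumor), given to the nearest 0.1. Versions, annotation, strand setting and gene filter were not given in the sources used here. At least 99.96% of values up to 8000 were whole multiples (tolerance 0.051) of 1 step per tumor (0.881 to 1.309), which gave back whole reads. Counting error only is covered by read numbers, since reads carry no molecular identifiers. No 2 tumors of a group agreed within sampling noise (30 pairs, lowest chi-square divided by degrees of freedom 18.56).

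The 18250 genes above 0 in some tumor were compared on log2(normalized count + 1) with limma 3.58.1 with trend (R 4.3.3), knockout (10) against control (5) as in the study and, in a fit with 1 term per group, clone 18 against clone 4, with Benjamini-Hochberg adjustment at 0.05 over all genes. Exact permutation tests were two-sided. Members and lists were chosen with earlier results of these data known. Named genes are the members, other axis and neighbour genes with a mean of at least 10 past the threshold between knockout and control (at most 4 per list), the 5 genes most alike, and *Pbrm1*. Genes named beside these without passing, and *Igfals* and *Htra1*, were picked after their values were seen. The list labelled PI3K and AKT steps holds *Pdk1*, a pyruvate dehydrogenase kinase, by its symbol. Alternatives were pseudocounts of 0.1 and 5, a mean of at least 10, upper quartile and TMM scaling, recovered reads in edgeR 4.0.16 and in DESeq2 1.42.0, limma without trend, and each tumor left out. The limma steps were tested on simulated data, with a spread set by the mean level of each gene alone. That test does not cover the further spread between these tumors. Gene positions and exon lengths are from GENCODE M21, sequences from RefSeq GRCm38.p6, where 9 of 10 members had a promoter window (13 windows) and *H19* none. Some genes of these lists are not reported here by name.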

Additional observations from a re-analysis of the deposited data

Results flagged for a closer look

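Of 30 groups of 5 tumors (10 members in 3 groups), 3 held 1 tumor far from the others by Dixon's criterion, against 1.5 that chance would give at 1 in 20. *Igf1* in control tumor 5 was 2963 normalized counts, with the other control tumors at 2365 to 2513. *Igfbp2* in the same control tumor 5 was 295, with the others at 118 to 162.5. *Igfbp5* in control tumor 4 was 214, with the others at 405 to 482.

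The difference from the shared control tumors was unlike in the 2 clones, by limma's test of clone 18 minus clone 4, for *Igfbp6* (0.86, adjusted p = 0.000332, higher in 5 of 5 clone 18 tumors than in any clone 4 tumor), *Htra1* (0.57, adjusted p = 0.00681, likewise 5 of 5), *Gab1* (-0.31, adjusted p = 0.0245, lower in 5 of 5) and *Igf2bp3* (-1.69, adjusted p = 0.0496).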

How the results depend on the processing

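No paired analysis was possible because no replicate number links tumors of different groups. The number of members that passed between the clones was 0 as reported and 1, *Igf2*, with pseudocount 5 and with edgeR or DESeq2 on recovered reads. With 1 tumor left out it ranged from 0 to 1, with 1 without control tumor 4 or without tumor 10 of clone 4. The clone difference of log2 *Igf2* minus log2 *H19* turned to -0.000595 with pseudocount 0.1 and ranged from -0.32 to 0.29 with 1 tumor left out, all far from passing. The clone difference of *Igfbp3* turned to 0.00886 under upper quartile scaling and ranged from -0.17 to 0.11 with 1 tumor left out. The cause was not tested. The number of other axis genes that passed between knockout and control stayed between 8 and 12, against 10.

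For the members' knockout minus control values, 228 of 230 alternative values moved by less than the spread between tumors, and both others were *Igf2*, at 5.90 with pseudocount 0.1 and 3.68 with pseudocount 5. With 15 reads of *Igf2* in all control tumors, the depth there limits how exactly its fold can be given, and that fold depends on the pseudocount. The exact permutation test, chosen after seeing the data, gave *Igfbp2* an unadjusted p of 0.0714 between the clones, where limma's was 0.0256.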
